A study of Homo sapiens with 9 samples.

Results

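S100 proteins are small calcium-binding proteins that carry a pair of EF-hand calcium-binding loops and mostly act as dimers. On binding calcium most of them open a hydrophobic face that docks onto annexins, myosins, kinases or cytoskeletal proteins, and some are released from cells and act on receptors such as AGER, the receptor for advanced glycation end products. In skin, S100B is found in melanocytes and is used as a tissue and serum marker of melanoma, and most of the S100A genes lie side by side on chromosome 1. The probe sets described here are all those annotated to a single gene among S100A1, S100A2, S100A4, S100A6, S100A10, S100A11, S100A13, S100A16, S100B and S100P, which gave 14 of the 54613 probe sets tested and 10 of the 19775 genes read.

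RNA was read on 9 Affymetrix U133 Plus 2.0 arrays of MDA-MB435S, an established human metastatic melanoma cell line. All cells were stable G418-selected clones made with a lentiviral vector, in 3 groups of 3 arrays. The WWOX group is that with the wild-type tumor suppressor WWOX, and the EV group that with the empty vector. The WFPA group is that with a WWOX mutated in its first WW domain so that its binding to partner proteins is disturbed. Its arrays are named mut, and WFPA is the study's term for the mutant. The vector field of the labels conflicts with the names of the WWOX and EV arrays and EV arrays are named with an added wox+, so the groups are those of the array names, and the direction of each difference rests on those names. The sources do not say how many clones a group held or whether its arrays came from separate cultures, so a p-value measures only the spread between these arrays, and a difference between clones cannot be told apart from one between constructs.

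The values are deposited log2 intensities, and each difference below is a difference of log2 means with limma's standard error, its adjusted p being that of Benjamini-Hochberg over all 54613 probe sets. A probe set was called when this adjusted p was under 0.05 and the change at least 2-fold. The median of all probe sets was 6.03 to 6.05 on every array and the lower quartile 4.23 to 4.34. At the brightest WWOX probe set the 3 WWOX arrays read 10.80, 10.83 and 10.34, the WFPA arrays 10.35, 10.12 and 10.25 and the EV arrays 9.26, 8.80 and 8.74, so that both constructs lay above empty vector. At 221147_x_at WWOX averaged 8.18 in WWOX, 7.64 in WFPA and 4.49 in EV cells, in the direction of the names. Of the other 3 WWOX probe sets, 219077_s_at averaged 5.13 in WWOX, 5.499 in WFPA and 3.91 in EV cells, 210695_s_at averaged 6.11, 5.98 and 5.98 in WWOX, WFPA and EV cells, and 223747_x_at was highest in EV cells (8.87 in WWOX, 8.38 in WFPA and 9.11 in EV cells), with WFPA minus EV at −0.73 (limma adjusted p = 0.0433).

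WWOX cells held more S100B, S100A1 and S100A4 RNA than both WFPA and EV cells, and S100B showed the widest difference of the family. Against EV cells, 3 of the 14 probe sets were called higher, where 1.66% of all probe sets were, and 0 were called lower, where 1.64% of all were. Against WFPA cells, the same 3 probe sets were called higher (background 1.51%) and 1, that of S100P, was called lower (background 2.47%). Between WFPA and EV cells none of the 14 was called (background 1.26% higher and 0.474% lower). The median difference of the 14 probe sets was 0.31 for WWOX minus EV cells, 0.19 for WWOX minus WFPA cells and 0.07 for WFPA minus EV cells, beside 0.02, 0.05 and −0.04 for all probe sets. The 3 comparisons share arrays, so their counts are not independent.

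**Figure D1:**
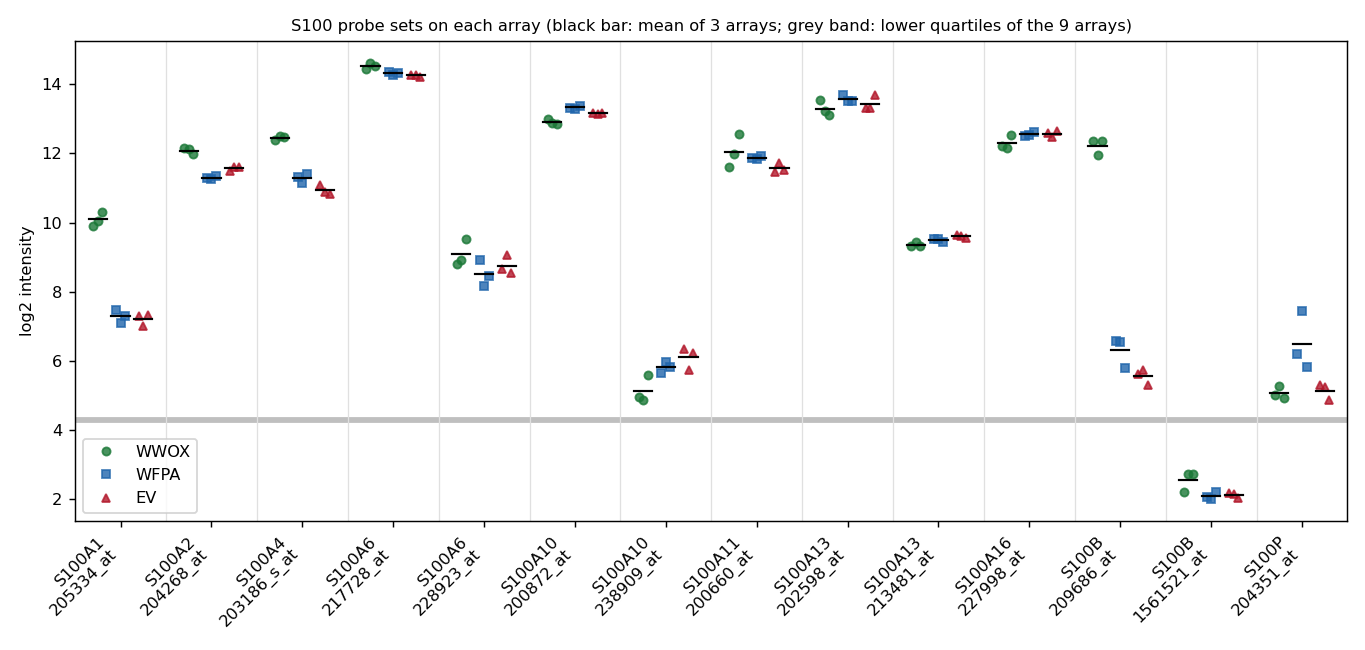
Log2 intensity (y axis) of the 14 S100 probe sets (x axis, gene and probe set name) on each of 3 WWOX, 3 WFPA and 3 EV arrays, 1 point per array, with the mean of 3 arrays as a black bar and the lower quartiles of the 9 arrays as a grey band. The WWOX arrays of S100B, S100A1 and S100A4 stand clear above the other 6, and the second S100B probe set lies under the grey band on all 9 arrays.

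S100B, a calcium sensor of melanocytes, Schwann cells and astrocytes that acts inside cells and as a secreted ligand, was read by the probe sets 209686_at and 1561521_at. At 209686_at the WWOX arrays read 12.37, 11.96 and 12.36, the WFPA arrays 6.57, 6.55 and 5.80, and the EV arrays 5.62, 5.75 and 5.30. All 3 WWOX arrays lay above all 6 others, and all 3 WFPA arrays lay above all 3 EV arrays. WWOX cells were 6.67 above EV cells (SE 0.223, 102-fold, limma adjusted p = 3.94e-07) and 5.92 above WFPA cells (SE 0.223, 60.5-fold, limma adjusted p = 8.08e-07). The step of 0.75 between WFPA and EV cells had a 95% interval of 0.25 to 1.26 and a limma adjusted p of 0.088, and was not called. Without WFPA replicate 3, the lowest of its group, this step was 1.01 and was called (limma adjusted p = 0.0209).

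The second S100B probe set, 1561521_at, read 2.22, 2.74 and 2.73 on the WWOX arrays, 2.06, 2.00 and 2.22 on the WFPA arrays and 2.18, 2.14 and 2.03 on the EV arrays. All 9 values lie under the lower quartile of their array, where a difference can be compressed. The differences of 0.44 between WWOX and EV cells (limma adjusted p = 0.0867) and 0.47 between WWOX and WFPA cells (limma adjusted p = 0.059) were not called, so the S100B result rests on 209686_at alone. With the mean of both probe sets in place of the brighter one, WWOX minus EV was 3.56 and WWOX minus WFPA was 3.19, and both stayed called.

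S100A1, known from heart and skeletal muscle where it tunes calcium release and uptake by the sarcoplasmic reticulum, was read by 205334_at. The WWOX arrays read 9.91, 10.06 and 10.31, the WFPA arrays 7.47, 7.10 and 7.31, and the EV arrays 7.30, 7.02 and 7.34. All WWOX arrays lay above all others, while the WFPA and EV arrays overlapped. The difference was 2.87 between WWOX and EV cells (SE 0.144, 7.33-fold, limma adjusted p = 3.65e-06) and 2.80 between WWOX and WFPA cells (SE 0.144, 6.98-fold, limma adjusted p = 4.02e-06). WFPA minus EV was 0.07, with a 95% interval of −0.26 to 0.40.

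S100A4, also called metastasin, binds non-muscle myosin and is linked with cell motility. It was read by 203186_s_at, at 12.39, 12.51 and 12.46 on the WWOX arrays, 11.33, 11.16 and 11.39 on the WFPA arrays and 11.08, 10.90 and 10.84 on the EV arrays. The 3 groups did not overlap and stood in the order WWOX, WFPA, EV. WWOX cells were 1.51 above EV cells (SE 0.101, 2.86-fold, limma adjusted p = 2.10e-05) and 1.16 above WFPA cells (SE 0.101, 2.24-fold, limma adjusted p = 9.96e-05). WFPA minus EV was 0.35 (95% interval 0.13 to 0.58, limma adjusted p = 0.079), not called.

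S100A2, mostly a nuclear protein of epithelial cells, was read by 204268_at at 12.15, 12.12 and 11.98 on the WWOX arrays, 11.28, 11.26 and 11.35 on the WFPA arrays and 11.50, 11.62 and 11.61 on the EV arrays. Here too the groups did not overlap, but the lowest was WFPA. WWOX cells were 0.51 above EV cells (SE 0.0856, limma adjusted p = 0.00533) and 0.79 above WFPA cells (SE 0.0856, limma adjusted p = 3.66e-04). Both passed the adjusted p and neither reached 2-fold. WFPA minus EV was −0.28, with a 95% interval of −0.47 to −0.09 (limma adjusted p = 0.0977).

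**Figure D2:**
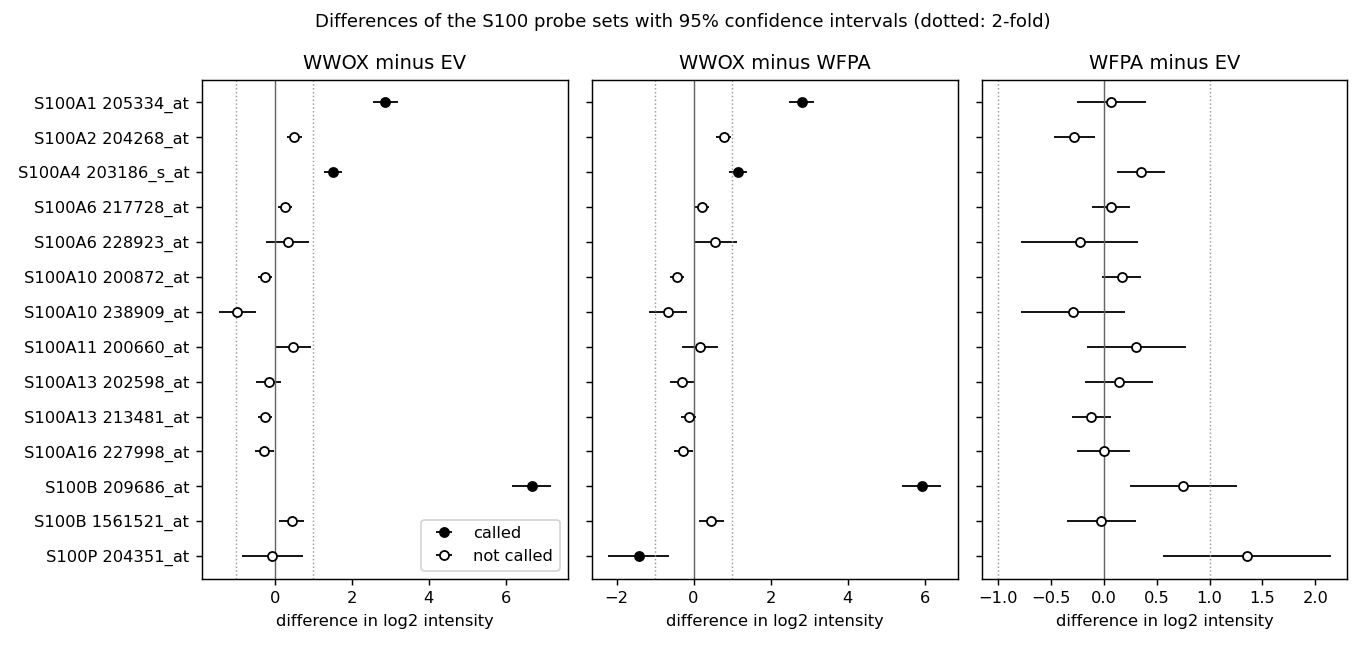
Difference in log2 intensity (x axis, a different range in the right panel) of the 14 S100 probe sets (y axis) between WWOX and EV, WWOX and WFPA, and WFPA and EV cells, with 95% confidence intervals from limma; filled points were called and dotted lines mark 2-fold. S100B at 209686_at stands at 6.67 and 5.92 in the first 2 panels, and S100P is the filled point below 0, at −1.42.

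S100P, first found in placenta and a ligand of AGER that also binds ezrin, had another pattern. Its probe set 204351_at read 5.002, 5.28 and 4.94 on the WWOX arrays, 6.21, 7.44 and 5.83 on the WFPA arrays and 5.30, 5.24 and 4.87 on the EV arrays. The WFPA arrays lay above all 6 others, with replicate 2 the highest, and the WWOX and EV arrays overlapped. WWOX cells were lower than WFPA cells (a difference of −1.42, SE 0.350, 2.68-fold, limma adjusted p = 0.0245), and WFPA minus EV was 1.36 with an adjusted p of 0.0542 from limma, which just missed the threshold. The call against WFPA cells ended without WFPA replicate 2 (−0.95, limma adjusted p = 0.0151, under 2-fold), without WWOX replicate 1 (limma adjusted p = 0.0518) or without WWOX replicate 3 (limma adjusted p = 0.0683), and in a fit of the 2 groups alone (limma adjusted p = 0.0618). Without WFPA replicate 3, WFPA minus EV was 1.69 and was called (limma adjusted p = 0.0317).

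S100A10 differs from the rest of the family in that its loops no longer bind calcium, and it forms a stable complex with annexin A2 at the plasma membrane. At 200872_at the WWOX arrays read 13.002, 12.87 and 12.85, the WFPA arrays 13.33, 13.29 and 13.38, and the EV arrays 13.17, 13.15 and 13.18. The WWOX arrays were the lowest of all and the WFPA arrays the highest, by small steps: WWOX minus WFPA was −0.42 (SE 0.0806, limma adjusted p = 0.00736, under 2-fold) and WWOX minus EV was −0.26 (95% interval −0.44 to −0.07, limma adjusted p = 0.077).

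The second S100A10 probe set, 238909_at, read 4.95, 4.86 and 5.60 on the WWOX arrays, 5.66, 5.96 and 5.81 on the WFPA arrays and 6.34, 5.75 and 6.22 on the EV arrays. It pointed the same way at a larger step, −0.96 between WWOX and EV cells (SE 0.217, limma adjusted p = 0.0206), just short of 2-fold, and −0.67 between WWOX and WFPA cells (limma adjusted p = 0.0667). Without EV replicate 2 the difference from EV cells was −1.14 and without WWOX replicate 3 it was −1.20, and both of these were called.

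The remaining members differed by less than 2-fold in each comparison. S100A6, or calcyclin, read 14.45 to 14.61 on the WWOX arrays, 14.28 to 14.36 on the WFPA arrays and 14.22 to 14.28 on the EV arrays at 217728_at. WWOX minus EV was 0.28 there (95% interval 0.10 to 0.46, limma adjusted p = 0.0577) and WWOX minus WFPA was 0.21 (95% interval 0.03 to 0.39, limma adjusted p = 0.114). Its second probe set, 228923_at, had overlapping arrays in all 3 comparisons and differences of 0.34, 0.57 and −0.23 for WWOX minus EV, WWOX minus WFPA and WFPA minus EV.

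S100A11, a partner of annexin A1, showed its widest spread within WWOX cells. At 200660_at the WWOX arrays read 11.60, 11.996 and 12.56, against 11.87, 11.84 and 11.94 on the WFPA arrays and 11.47, 11.74 and 11.51 on the EV arrays. The WWOX arrays overlapped both other groups, with an SD of 0.480 against 0.0544 in WFPA and 0.143 in EV cells. WWOX minus EV was 0.48 (95% interval 0.01 to 0.94, limma adjusted p = 0.189) and WWOX minus WFPA was 0.17 (95% interval −0.30 to 0.64, limma adjusted p = 0.609).

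S100A13, which takes part in the release of the growth factor FGF1 from cells, read 13.12 to 13.55 on the WWOX arrays, 13.53 to 13.70 on the WFPA arrays and 13.32 to 13.69 on the EV arrays at 202598_at. The groups overlapped, and WWOX minus EV was −0.15 (95% interval −0.47 to 0.18). At its second probe set, 213481_at, the WWOX arrays read 9.31 to 9.45, the WFPA arrays 9.44 to 9.53 and the EV arrays 9.55 to 9.65, and WWOX minus EV was −0.25 (95% interval −0.43 to −0.06, limma adjusted p = 0.0903). S100A16, a widely expressed member, read 12.15 to 12.52 at 227998_at on the WWOX arrays, 12.52 to 12.61 on the WFPA arrays and 12.47 to 12.64 on the EV arrays, and its differences from EV and WFPA cells were −0.27 and −0.26 (limma adjusted p = 0.174 and 0.145).

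Counted by the adjusted p alone at any fold, 5 of the 14 probe sets passed between WWOX and EV cells (11.8% of all probe sets), 6 between WWOX and WFPA cells (16.3% of all) and 0 between WFPA and EV cells (6.64% of all). With WWOX set against the mean of WFPA and EV cells, the comparison of the study's methods, 3 of 14 were called higher at 2-fold (background 1.46%) and 0 lower (background 1.77%), and 8 passed at any fold (background 16.3%). The methods name a 4-fold limit with Bonferroni adjustment, and S100A4, at 1.34, falls short of 4-fold. The 3 called were again S100A1, S100A4 and S100B, and the 5 others were S100A2, the brighter S100A6 probe set, both S100A10 probe sets and the dim S100B probe set.

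Among the members, 8 lie on chromosome 1, S100B on chromosome 21 and S100P on chromosome 4. In the RefSeq order along chromosome 1, S100A4 stands between S100A5 and S100A3, and S100A1 is last in the row, next to S100A13. WWOX minus EV was 0.86 for S100A5, 1.51 for S100A4, 0.78 for S100A3 and 0.51 for S100A2, the next gene in the row, and then −0.27 for S100A16, 0.05 for S100A14, −0.15 for S100A13 and 2.87 for S100A1. The 4 neighbours from S100A5 to S100A2 had limma adjusted p-values of 0.0206, 2.10e-05, 0.0228 and 0.00533 in this comparison, and S100A4 alone of them reached 2-fold. WWOX minus WFPA was −0.86 for S100A5, the opposite direction, 1.16 for S100A4, 0.51 for S100A3 and 0.79 for S100A2. Limma adjusted p-values there were 0.0167, 9.96e-05, 0.0902 and 3.66e-04. These 4 neighbours were picked out after their values were seen. The gene spans of S100A1 and S100A13 overlap in RefSeq, and neither S100A13 probe set was called. Of the 30 other genes read between S100A10 and S100A1, 0 were called higher in WWOX than in EV cells (background 1.66% of probe sets). PRR9 alone was called lower (background 1.64%), and it was also called lower in WFPA than in EV cells. In 30 genes such counts are too small to set apart from the background.

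**Figure D3:**
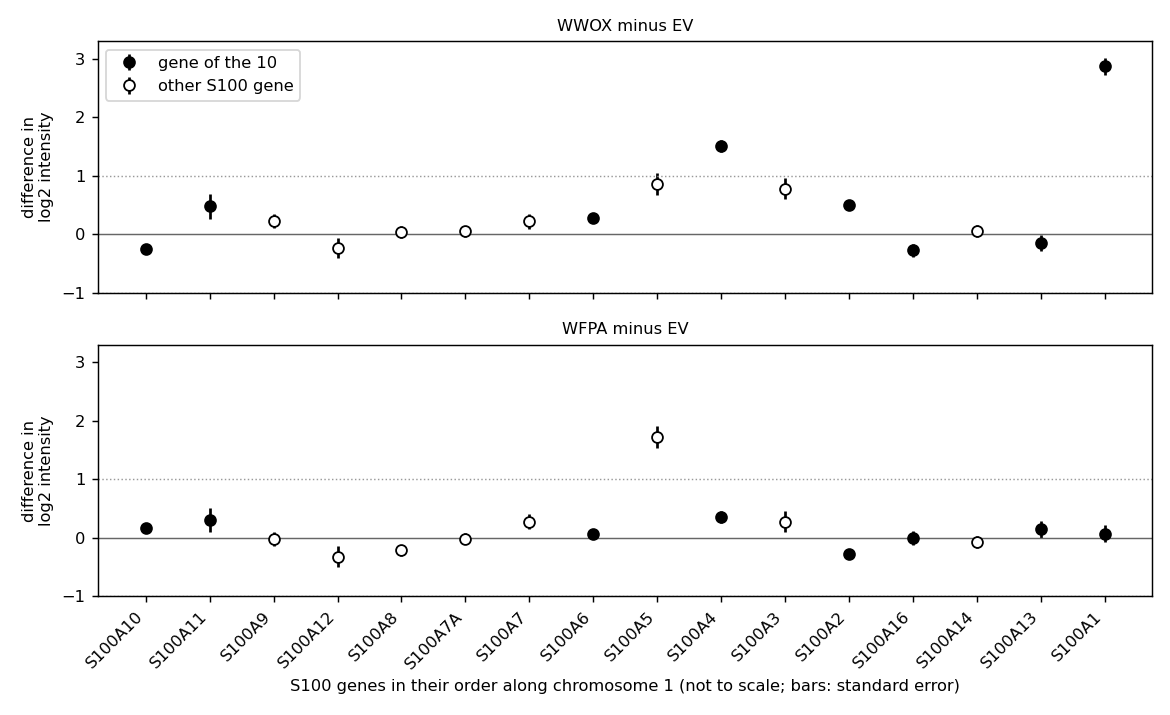
Difference in log2 intensity (y axis) of the 16 S100 genes read on chromosome 1, in their order along the chromosome (x axis, not to scale), for WWOX minus EV cells (upper panel) and WFPA minus EV cells (lower panel), with limma's standard error; filled points are genes of the 10 and dotted lines mark 2-fold. S100A4 at 1.51 and S100A1 at 2.87 lie above 2-fold in the upper panel, and S100A5 at 1.72 in the lower.

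The RefSeq promoter tables held 9 of the 10 genes (GRCh38.p14), S100B not among them. The 130 bases before the start of S100A4 and S100A1, called higher in WWOX cells, and of S100P, highest in WFPA cells, are shown with each match of the searched motifs in capitals, 5′ to 3′ on the gene's strand.
S100A4 promoter, chr1:153545807-153545936, minus strand: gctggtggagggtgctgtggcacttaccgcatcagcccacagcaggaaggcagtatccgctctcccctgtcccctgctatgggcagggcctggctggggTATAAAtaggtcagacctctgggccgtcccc
S100A1 promoter, chr1:153628304-153628433, plus strand: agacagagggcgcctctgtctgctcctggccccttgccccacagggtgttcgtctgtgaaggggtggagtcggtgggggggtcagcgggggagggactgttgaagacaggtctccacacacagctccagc
S100P promoter, chr4:6693748-6693877, plus strand: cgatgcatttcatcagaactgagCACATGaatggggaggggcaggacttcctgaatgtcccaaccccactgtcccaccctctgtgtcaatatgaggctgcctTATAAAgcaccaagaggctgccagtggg
The TATA box letters TATAAA began 31 bases before the start in S100A4, 29 in S100A13 and 28 in S100P, and were found on either strand of the 250 bases before the start in 10.7% of all 35116 promoters. CATGTG, an E-box form and printed as its reverse complement CACATG in S100P, was found in S100A13, S100A16 and S100P and in 9.42% of all. The other E-box form searched, CACGTG, was in none of the 9 and in 6.34% of all promoters. The letters ACAAAG, bound by SOX factors, were in none of the 9 and in 13.7% of all, and the SOX letters AACAAT in none of the 9 and in 8.98% of all. In 9 promoters such counts are too small to set apart from these shares, and the S100B promoter was not searched. No 2 of the searched motifs overlap in the windows shown.

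Over the 9 arrays, the patterns most like that of S100B, by the root mean square difference of log2 values after each gene's mean was subtracted, were those of LINC00326 (0.443), TMTC1 (0.464), SOX10 (0.490), ATP6V0D2 (0.542) and SYTL5 (0.569), out of 19765 genes compared. Those most like S100A1 were ST6GALNAC2 (0.119), LYPD1 (0.194) and GPR39 (0.201). SOX10, a transcription factor of the neural crest, read 10.53, 10.44 and 10.67 on the WWOX arrays at its brightest probe set. There it read 5.44, 5.30 and 5.26 on the WFPA arrays and 4.67, 5.05 and 4.96 on the EV arrays. Its second probe set, 209843_s_at, averaged 8.61 in WWOX, 5.60 in WFPA and 5.61 in EV cells. WWOX minus EV was 3.00 there, beside 5.66 at the brightest one, on which the ranking rests.

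Of 37 probe sets of 17 melanocytic marker genes, 12 (32.4%, background 1.66%) in 6 genes (EDNRB, ERBB3, MIA, MITF, SOX10 and TRPM1) were called higher in WWOX than in EV cells, and 8 in 4 genes (MIA, MITF, SOX10 and TRPM1) higher than in WFPA cells (21.6%, background 1.51%). EDNRB and TRPM1 were not called at their brightest probe set, where WWOX minus EV was 0.87 and 0.26. At that EDNRB probe set WFPA minus EV was 0.77 (limma adjusted p = 0.0113) and WWOX minus WFPA was 0.11. Between WFPA and EV cells 1 of the 37, in EDNRB, was called higher (2.7%, background 1.26%). The mean level of the 17 genes per array was 7.61 to 7.74 in WWOX cells, 6.95 to 7.03 in WFPA cells and 6.98 to 7.01 in EV cells. At the brightest probe sets WWOX minus EV was 5.66 for SOX10, 2.31 for MIA, 1.56 for MITF and 1.43 for ERBB3. The other genes of the list lay between −0.76 and 0.87, so the higher mean rests mostly on a few genes. None of the 37 was called lower. At the brightest probe sets the pigment genes TYRP1 and MLANA stood at 2.21 and 4.43 in WWOX cells, 2.31 and 4.42 in WFPA cells and 2.26 and 4.38 in EV cells, near or under the lower quartile, PMEL at 5.77, 5.91 and 5.80, and GPR143 at 11.46, 11.45 and 11.32 in WWOX, WFPA and EV cells. PMEL read the same 5.76953 on every WWOX array and on EV replicate 3, under the medians of these arrays. OCA2 was lower in WWOX than in EV cells by less than 2-fold (−0.76, limma adjusted p = 9.85e-04), and CSPG4 differed by −0.41 (limma adjusted p = 0.0602). WFPA cells differed likewise from EV cells, by −0.92 for OCA2 (limma adjusted p = 6.76e-04) and −0.41 for CSPG4 (limma adjusted p = 0.0874). WWOX minus WFPA was 0.15 for OCA2 and −0.002 for CSPG4. The 8 Schwann and glial markers read averaged 7.67 to 7.93 per array in WWOX cells, 5.86 to 5.94 in WFPA cells and 5.70 to 5.76 in EV cells. Of their 27 probe sets 8 (29.6%, background 1.66%) were called higher in WWOX than in EV cells, in CDH19, CRYAB, ERBB3, FABP7 and SOX10. Against WFPA cells 6 (22.2%, background 1.51%) were called higher, in the same genes without ERBB3. ERBB3 and SOX10 are in the melanocytic list too, so the counts of these lists are not independent. The 13 epithelial markers averaged 6.81 to 6.91 in WWOX, 7.51 to 7.54 in WFPA and 7.07 to 7.18 in EV cells. Of their 31 probe sets 3 (9.68%, background 1.64%), in KRT8, KRT18 and GATA3, were called lower in WWOX than in EV cells. Against WFPA cells 8 (25.8%, background 2.47%), in 6 genes, were called lower in WWOX cells. In WFPA cells 5 (16.1%, background 1.26%), in CDH1, ESR1 and GATA3, were called higher than in EV cells. The 10 fibroblast markers averaged 5.98 to 6.04 in WWOX, 5.30 to 5.43 in WFPA and 5.03 to 5.15 in EV cells. Of their 34 probe sets 5 (14.7%, background 1.66%), in ACTA2, COL1A2, FAP and LUM, were called higher in WWOX than in EV cells. Against WFPA cells 3 (8.82%, background 1.51%), in COL1A2, FAP and LUM, were called higher in WWOX cells. In WFPA cells 3 (8.82%, background 1.26%), in ACTA2 and COL1A2, were called higher than in EV cells. The 9 leukocyte markers averaged 4.98 to 5.07 in WWOX, 5.15 to 5.26 in WFPA and 5.46 to 5.48 in EV cells. Of their 19 probe sets 3 (15.8%, background 1.64%), all of PTPRC, were called lower in WWOX than in EV cells. Against WFPA cells 3 (15.8%, background 2.47%), all of PTPRC, were called lower in WWOX cells. In WFPA cells 3 (15.8%, background 0.474%), again all of PTPRC, were called lower than in EV cells. The part of these markers in the S100 differences was not tested, and in bulk RNA a change in the share of cells and a change per cell cannot be told apart.

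Outside the 10 genes, 10 other S100 genes were read by 12 probe sets. S100A5, a calcium-binding protein known from olfactory neurons, read 8.29, 8.20 and 8.10 on the WWOX arrays, 9.28, 8.99 and 8.90 on the WFPA arrays and 7.61, 7.52 and 6.86 on the EV arrays. Its groups did not overlap, and WFPA cells were the highest, 1.72 above EV cells (SE 0.194, limma adjusted p = 0.00112). WWOX minus EV was 0.86 and WWOX minus WFPA was −0.86, both under 2-fold; without EV replicate 1, WWOX minus EV was 1.005 and was called.

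S100G, the intestinal calcium carrier calbindin-D9k, read 4.46, 4.88 and 4.88 on the WWOX arrays, 4.81, 4.75 and 4.63 on the WFPA arrays and 6.36, 6.16 and 6.39 on the EV arrays. Both construct groups were called lower than EV cells, with differences of −1.56 for WWOX (limma adjusted p = 8.63e-05) and −1.58 for WFPA cells (limma adjusted p = 2.13e-04). None of the other 8, the inflammatory S100A8, S100A9 and S100A12 among them, was called in any pairwise comparison.

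Most receptors and binding partners of S100 proteins were not called. Of 147 probe sets of 50 such genes, 0 were called higher and 9 lower in WWOX than in EV cells, in 5 genes (AHNAK, ANXA2, FGF1, IQGAP1 and TLR4), which is 6.12% against the background of 1.64%. TLR4 and FGF1 gave 3 of these probe sets each, and the median of all 147 was −0.07. Against WFPA cells, 0 were called higher and 12 lower in WWOX cells, in 7 genes (AHNAK, ALCAM, CD36, FGF1, IQGAP1, SUGT1 and TLR4), which is 8.16% against 2.47%, with a median of −0.02. WFPA cells had 3 probe sets called higher than EV cells, in CD36 and SUGT1 (2.04%, background 1.26%), and 0 called lower (background 0.474%). Several probe sets of 1 gene are not independent, and the list was written with earlier results of these data known.

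TLR4, a receptor of innate immunity that also binds the S100A8 and S100A9 pair, read 5.99, 5.499 and 5.67 on the WWOX arrays, 7.71, 8.15 and 8.52 on the WFPA arrays and 8.64, 8.31 and 8.49 on the EV arrays. All WWOX arrays were lower than all others, with a difference of −2.76 from EV cells (SE 0.206, limma adjusted p = 4.22e-05) and of −2.40 from WFPA cells (limma adjusted p = 8.96e-05). FGF1, the growth factor whose release involves S100A13, read 7.81, 7.01 and 7.68 on the WWOX arrays, 9.68, 9.67 and 9.66 on the WFPA arrays and 9.32, 9.53 and 9.52 on the EV arrays. FGF1 fell by 1.96 in WWOX against EV cells (SE 0.185, limma adjusted p = 1.89e-04) and fell by 2.17 against WFPA cells (limma adjusted p = 8.72e-05).

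ANXA2, AGER, ANXA1, CACYBP and EZR stayed under 2-fold at their brightest probe set in WWOX cells. ANXA2, the partner of S100A10, differed by −0.32 between WWOX and EV cells (limma adjusted p = 0.0436) and by −0.31 between WWOX and WFPA cells (limma adjusted p = 0.0409), beside −0.26 and −0.42 for S100A10. A dimmer ANXA2 probe set, 1568126_at, was called lower than in EV cells, at −1.36. WFPA cells were also lower than EV cells there (−0.80, limma adjusted p = 0.0174, under 2-fold). WWOX minus WFPA was −0.55 at this probe set (limma adjusted p = 0.042), not called. AGER differed by −0.22 between WWOX and EV cells (95% interval −0.59 to 0.15) and by −0.44 between WWOX and WFPA cells (limma adjusted p = 0.104), and at its second probe set, 210081_at, by −0.55 (95% interval −0.93 to −0.17) and −0.81 (limma adjusted p = 0.011). Between WWOX and EV cells ANXA1, CACYBP, the partner of S100A6, and EZR, a partner of S100P, differed by −0.10, −0.14 and −0.18 (limma adjusted p = 0.517, 0.3996 and 0.160). Between WWOX and WFPA cells they differed by −0.31, −0.30 and −0.08 (limma adjusted p = 0.0327, 0.0568 and 0.517). At the other CACYBP probe sets WWOX minus WFPA was −0.27 to −0.53 (limma adjusted p = 0.00939 to 0.063), and WWOX minus EV was −0.13 to 0.27. WFPA minus EV was 0.80 at 201382_at (limma adjusted p = 0.00479), 0.33 at 211761_s_at (limma adjusted p = 0.0413) and 0.14 at 210691_s_at. The other 4 EZR probe sets were lower in WWOX than in EV cells, by less than 2-fold (−0.70 to −0.82, limma adjusted p = 0.00152 to 0.0136). They were also lower in WWOX than in WFPA cells (−0.58 to −0.68, limma adjusted p = 0.00318 to 0.0302).

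**Figure D4:**
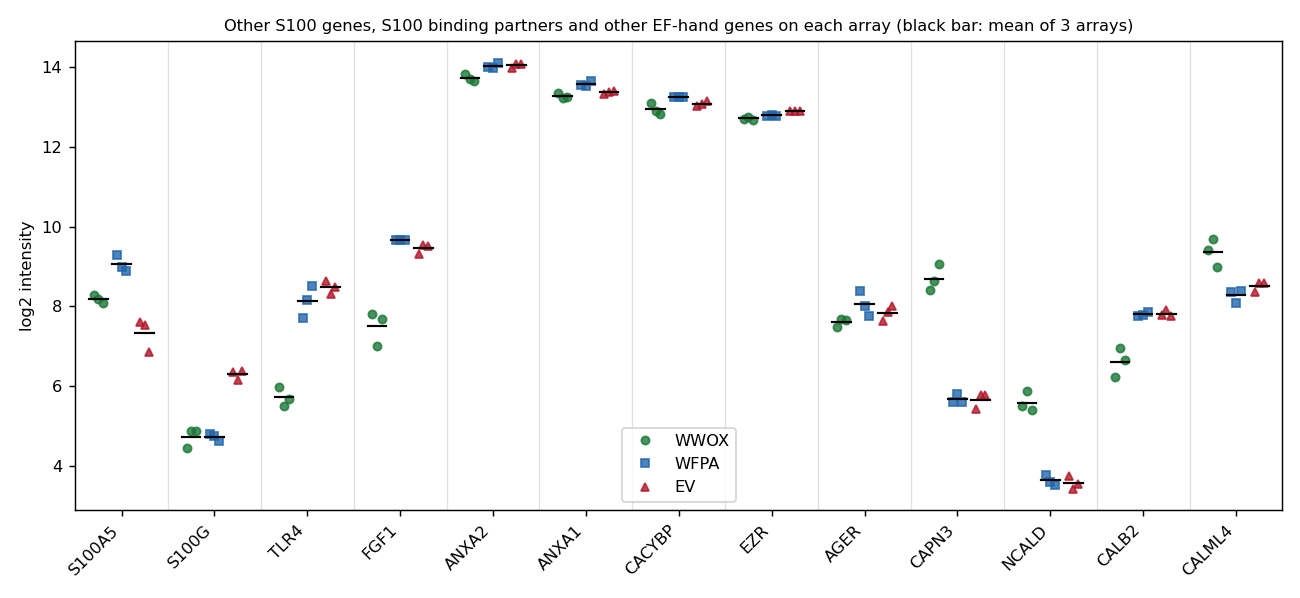
Log2 intensity (y axis) of 2 other S100 genes, 7 receptors or binding partners and 4 other EF-hand genes (x axis) on each of 3 WWOX, 3 WFPA and 3 EV arrays, 1 point per array, with the mean of 3 arrays as a black bar. The WWOX arrays of TLR4, FGF1, CALB2, ANXA2 and EZR lie below, and those of CAPN3, NCALD and CALML4 above, all other arrays. The steps of ANXA2 and EZR are under 2-fold.

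Other EF-hand genes, which share the calcium-binding fold, gave 5 of 107 probe sets called higher in WWOX than in EV cells (4.67%, background 1.66%, in CALU, CAPN3 and NCALD) and 1 lower (CALB2, 0.935%, background 1.64%). Against WFPA cells 6 were called higher in WWOX cells (5.61%, background 1.51%, in CALML4, CAPN3 and NCALD) and 2 lower (CALB2 and SRI, 1.87%, background 2.47%). The shares called lower were under the background in both comparisons. CAPN3, a calcium-dependent protease of muscle, read 8.40, 8.63 and 9.06 on the WWOX arrays, 5.61, 5.82 and 5.60 on the WFPA arrays and 5.43, 5.78 and 5.79 on the EV arrays, a difference from EV cells of 3.03 (SE 0.173, limma adjusted p = 7.54e-06).

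NCALD, the neuronal calcium sensor neurocalcin delta, averaged 5.59 in WWOX cells, 3.64 in WFPA cells and 3.58 in EV cells, with all WFPA and EV arrays under their lower quartile. With the mean of its probe sets, WWOX minus EV was 1.01 and WWOX minus WFPA was 0.96, which was no longer called. CALB2, or calretinin, averaged 6.62 in WWOX cells, 7.80 in WFPA cells and 7.82 in EV cells, a difference from EV cells of −1.20 (SE 0.159, limma adjusted p = 0.00142), and its call against WFPA cells ended without WWOX replicate 1 (−0.998, under 2-fold). CALML4, a calmodulin-like protein, was 0.85 above EV cells (limma adjusted p = 0.0126, under 2-fold) and 1.09 above WFPA cells (limma adjusted p = 0.0029) in WWOX cells. Without WWOX replicate 2 its call against WFPA cells ended (0.93), and without WWOX replicate 3 it was called against EV cells (1.04). At its next brightest probe set, 221879_at, WWOX minus EV was 0.86 (limma adjusted p = 0.00414) and WWOX minus WFPA was 1.08 (limma adjusted p = 9.39e-04, called). At its dimmer probe sets these differences were −0.21 to 0.37 and −0.20 to 0.42. With the mean of all CALML4 probe sets, the dim ones included, they were 0.44 from EV and 0.51 from WFPA cells, and neither was called.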

How the data were processed

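The authors hybridised RNA of 9 cell samples to Affymetrix U133 Plus 2.0 arrays and processed them in Partek Genomics Suite. The deposited table holds log2 intensities, and the background and normalization method is not given in the sources used here. The values were used as deposited. Of 54675 probe sets, 62 array controls were left out, and 41091 of the 54613 tested carry 1 gene, 1801 several and 11721 none in GEO's platform annotation, which can be old. In limma 3.58.1 (R 4.3.3) 1 mean was fitted for each group over all 9 arrays, with 6 residual and 3.04 prior degrees of freedom and no block, and calls used a Benjamini-Hochberg adjusted p under 0.05 and 2-fold. Precision is limited by the 3 arrays of each group. The fit was tested on simulated data. A gene with several probe sets is represented by its brightest one, averaged over the 9 arrays.

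All S100 probe sets are given. From each list of other S100 genes, partners and other EF-hand genes, up to 5 genes with the largest called pairwise change at their brightest probe set are named, plus AGER, ANXA1, ANXA2, CACYBP and EZR. Other called genes in those lists and among the markers, S100A3, S100A14 and PRR9 were named after their values were seen. The members and lists were chosen with earlier results of these data known. RefSeq promoters were searched on both strands over the 250 bases before the start. Alternatives were median centring, quantile normalization, limma-trend, a robust prior, a plain 1-way model, Bonferroni adjustment, 4-fold and no fold limit, a filter on dim probe sets, a replicate block, each array left out, fits of 2 groups, EV and WFPA as 1 group, and the mean of a gene's probe sets. Plots were made in matplotlib 3.10.9 under Python 3.11.15.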

Additional observations from a re-analysis of the deposited data

How the results depend on the processing

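The S100 genes and the 13 genes of the other lists named by rule were refitted under 22 alternatives; none of their called differences changed direction, and 11 of the 24 called differences of single genes stayed called in each that gave a value, S100B and S100A1 in WWOX cells against both other groups among them. S100A4 lost its call against WFPA cells with Bonferroni adjustment (adjusted p = 0.0602), and against both groups at 4-fold. The 1 S100 probe set called lower in WWOX than in WFPA cells (S100P) became 0 in the plain 1-way model, with Bonferroni adjustment, at 4-fold, with only the 2 groups compared and with the filter on dim probe sets, which removes it, and 2 with no fold limit; leaving out 1 array gave 0 to 1. Probe sets called lower in WWOX than in EV cells, 0 as reported, were 1 with no fold limit and 0 to 1 without 1 array (S100A10). For WFPA against EV cells, 0 as reported, limma-trend gave 1 higher and so did the replicate block (S100P, adjusted p = 0.0345 and 0.0339), and leaving out 1 array gave 0 to 2. Against the mean of WFPA and EV cells, no fold limit gave 6 higher and 2 lower, where 3 and 0 were reported, and leaving out 1 array gave 0 to 1 lower. Replicate numbers did not pair the arrays: same-number correlations were −0.0521 to 0.0348 over 9 pairs, and 0 of 9 arrays were closest to their own number. The replicate block changed no other call among these genes. Marker genes and the other called genes of the lists were not refitted. Differences at probe sets near or under the lower quartile, such as 1561521_at and NCALD, may be compressed.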
